A study of Homo sapiens with 21 samples.

Results

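The 10 genes described here are AP-1 subunits and other immediate-early genes: FOS, FOSB, FOSL1, FOSL2, JUN, JUNB, JUND, EGR1, ATF3 and MYC. They were taken by symbol through the Ensembl gene identifier, and all 10 were found among the 60617 genes of each table. Messenger RNA had been sequenced from 7 lines of SUM149PT, an established inflammatory breast cancer cell line that the labels give as negative for estrogen and progesterone receptors. The uncloned line is called Parental, and its 6 clones are E, EM1, EM2, EM3, M1 and M2, each derived from SUM149PT, with no treatment and no genetic change named in the labels. From the series title, E, EM and M are read here as epithelial, intermediate and mesenchymal. Each line had 3 libraries, 21 in all. Each named state rests on 1 to 3 clones, so clone and state cannot be told apart, and the labels do not tell whether replicate libraries are separate cultures. The p-values therefore measure only the spread between these libraries.

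AP-1 is a dimer of basic leucine zipper proteins, a JUN family protein paired with another JUN, a FOS or an ATF family protein, that binds DNA at short sites called TPA response elements. FOS, FOSB, JUN, JUNB, EGR1 and ATF3 are immediate-early genes: serum, growth factors or stress can switch on their transcription within minutes, without new protein synthesis, through kinases of the ERK, JNK and p38 routes acting on factors such as SRF, ELK1 and CREB. FOSL1 (FRA-1) and FOSL2 (FRA-2) respond later and more lastingly. In breast cancer cells FOSL1 is known for its high level in basal and mesenchymal-like lines, and MYC, a growth regulator with an early serum response of its own, drives ribosome and nucleotide synthesis genes.

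The promoter set used here had no entry for FOSL1 and MYC. For the other 8 of the 10 genes, promoter sequences came from RefSeq (GRCh38.p14). They were searched for DNA elements through which such genes are known to take up signals, and for the TATA box sequence TATAAA. Capitals mark motif matches on either strand, and the bases are written 5′ to 3′ on the strand of the gene. The EGR1 sequence covers the 110 bases before its start (chr5:138465369-138465478, plus strand), and that of FOSB the 70 bases before its start (chr19:45467926-45467995, plus strand). For FOS (chr14:75278758-75278787, plus strand), JUN (chr1:58784096-58784125, minus strand) and ATF3 (chr1:212565277-212565306, plus strand, first of 2 starts) 30 bases around 1 match are shown.
EGR1: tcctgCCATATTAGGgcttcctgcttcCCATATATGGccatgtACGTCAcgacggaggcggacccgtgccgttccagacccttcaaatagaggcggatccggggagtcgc
FOSB: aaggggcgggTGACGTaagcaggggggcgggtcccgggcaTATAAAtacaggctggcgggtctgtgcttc
FOS: agcccgTGACGTttacactcattcataaaa
JUN: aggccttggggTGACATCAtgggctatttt
ATF3: tatgataTGACATCAtatggccactcaata

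The EGR1 sequence held 2 CArG boxes, the motif bound by SRF, at 105 to 96 and at 83 to 74 bases before the start. A CArG box was present in the 250 bases before the start of 1.16% of 35116 promoters. The core TGACGT of the cyclic AMP response element, read on both strands, lay in EGR1, FOS, FOSB, FOSL2 and JUND, at 64 to 59 bases before the start in FOS, at 60 to 55 in FOSB and at 66 to 61 in FOSL2, against 7.1% of promoters. JUN and ATF3 each held TGACATCA, a variant of the TPA response element, at 67 to 60 and 123 to 116 bases before the start, against 2.37% of promoters. JUND held the full response element TGACGTCA, which contains that core on both strands, at 200 to 193 bases before its start (1.65% of promoters). TATAAA, marked in FOSB at 30 to 25 bases before the start, lay in 10.7% of promoters and was the only match in JUNB. The TPA response element TGACTCA itself (4.2% of promoters) matched in no member searched. These matches describe the letters in the windows searched and not binding in these cells.

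Expected counts summed to between 24602417 and 48149939 per library. RSEM gives each gene an effective length, for the part of its transcripts from which reads can come. Its mean over expressed genes separated the clone libraries into sets. JUN, JUNB and EGR1 kept 1 effective length in all 21 libraries (3228, 1518 and 2825 bases), so the shift was not common to all genes. All 3 libraries of E and replicate 3 of the other 5 clones, 8 libraries, had means of 1751 to 1806 bases, and the other 10 clone libraries had means of 1880 to 1983 bases. Parental lay at 1825 to 1881 bases. Among the 5 clones other than E, mitochondrial genes made up 2.93 to 5.87% of TPM in replicate 3 and 4.33 to 10.6% in replicates 1 and 2, and totals were 41677476 to 47714099 and 25039378 to 46571768 counts. No label names a reason for these sets, so replicate 3 is shown apart below. The receptor genes ESR1 and PGR reached at most 2.26 and 0.05 TPM. Of the epithelial markers, the keratins KRT8 and KRT18 were at 263 to 4914 and 56 to 475 TPM in all 21 libraries. EPCAM, CDH1 and KRT19 were not kept in the M clones. Their means were 168, 108 and 852 TPM in E. In M1 they were 1.98, 0.08 and 9.43 TPM, and in M2 0.127, 0.0533 and 0.3. Of the markers of other cell types, CD3E, CDH5, VWF, LUM, PECAM1 and PTPRC stayed at or below 1.37 TPM in every library. CD14 (0.31 to 4.77 TPM), CD68 (15.5 to 226), PDGFRA (0 to 13.8), COL1A1 (1.62 to 789) and DCN (5.54 to 2443) were present in some or all libraries, and the part of other cells in the results was not tested.

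Levels are given in TPM, which is scaled by length, so genes can be compared with each other. FOSL1 and MYC were the most abundant members, with medians over the 21 libraries of 239 and 155 TPM, at the 96.6 and 95.7 percentiles of mean TPM among 13889 expressed genes. JUNB followed with a median of 71.1 TPM, JUND with 32.4, FOS with 19.9, FOSL2 with 14.3, EGR1 with 9.96, JUN with 9.23, ATF3 with 4.72 and FOSB with 0.83. FOS is an exception to the use of TPM. Its effective length ran from 62 to 1792 bases between libraries, a 29-fold range, while the median expressed gene varied 1.46-fold and only 89 of 13889 genes (0.641%) varied as much. RSEM had therefore assigned FOS reads to transcripts of very different length in different libraries, and FOS levels below are given as CPM, counts scaled to the library total, which do not use that length. JUN, JUNB and EGR1 had 1 effective length in all libraries. FOSB lies within the annotated span of ERCC1, and JUNB within that of HOOK2, both on the opposite strand, and FOSL2 overlaps an antisense gene. The strand setting of the counting is not given in the sources used here, so reads of such pairs cannot be told apart.

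**Figure D1:**
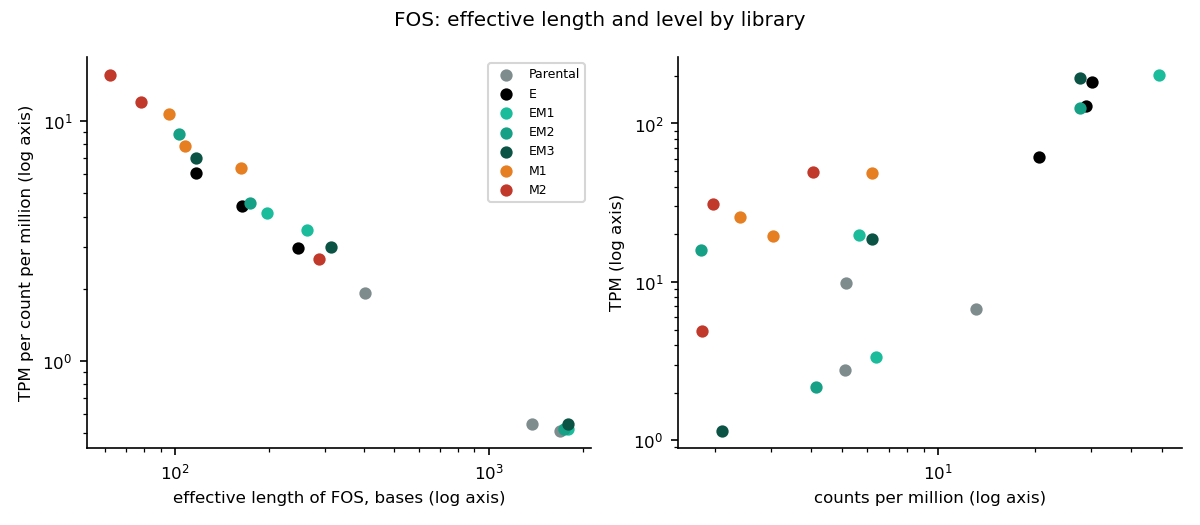
FOS in the 21 libraries, colored by line: TPM per CPM against the effective length in bases (left) and TPM against CPM (right), all axes logarithmic. The libraries spread from 62 to 1792 bases on the left, and on the right libraries with similar CPM differ widely in TPM.

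FOS, the founding FOS family subunit, stood at 20.7, 29 and 30.3 CPM in replicates 1 to 3 of E. It was at 5.65, 6.37 and 49 CPM in EM1, at 1.81, 4.16 and 27.7 in EM2 and at 2.11, 6.20 and 27.7 in EM3. In M1 it was at 2.4, 3.05 and 6.21 CPM, in M2 at 1.98, 4.07 and 1.82, and in Parental at 5.13, 5.12 and 13.1. All 3 libraries of E were thus high, and of the EM clones only replicate 3 was. By TPM, which the length distorts, the line means ran from 125 ± 61.2 (SD, n = 3) in E to 6.45 ± 3.52 in Parental.

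FOSB, a close relative of FOS with a strong and brief response to stimuli, was at 1.24, 1.25 and 1.57 TPM in E. It was at 0.25, 0.83 and 5.47 TPM in EM1, at 1.29, 0.27 and 4.63 in EM2 and at 0.79, 0.56 and 4.61 in EM3. In M1 it was at 0.73, 4.65 and 6.22 TPM, in M2 at 0.44, 0.48 and 2.24, and in Parental at 0.83, 0.65 and 0.25. Replicate 3 held the highest FOSB value of every clone, and E and Parental were the only pair of the 21 pairs of lines whose libraries did not overlap. Over all genes and pairs, 35.8% did not overlap in TPM.

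FOSL1, the most abundant FOS family member, was at 196, 229 and 239 TPM in E. It was at 192, 312 and 506 TPM in EM1, at 288, 81.1 and 417 in EM2 and at 418, 253 and 487 in EM3. The M1 libraries stood at 196, 451 and 396 TPM, those of M2 at 171, 129 and 209 and those of Parental at 276, 26.2 and 48.0. The lines overlapped widely: 2 of the 21 pairs did not overlap, E against EM3 and EM3 against M2. In CPM 2 other pairs did not overlap, Parental against E and E against M2, so neither pair held in both units. Parental alone spanned 26.2 to 276 TPM. FOSL2 had a tighter spread, with means of 27.3 ± 8.32 TPM in M1 and 25.9 ± 4.32 in M2 against 10.4 ± 4.13 in EM1, 10.5 ± 4.88 in Parental, 11.8 ± 4.42 in EM3, 14.3 ± 3.49 in EM2 and 14.6 ± 3.58 in E (SD, n = 3 each). Every M1 and M2 library lay above every library of the other 5 lines, which accounted for all 10 FOSL2 pairs without overlap. In CPM the pair of M1 and E did overlap, which left 9 pairs against 37.5% over all genes.

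Within the FOS family, FOSL1 made up 54.9 to 96.9% of the summed TPM in every library, with a median of 81.1%. FOS reached 32.9 ± 10.1% in E (SD, n = 3) by TPM, but 4.47 ± 0.456% when counts were divided by 1 length per gene, and FOSL1 then made up 64.2 to 97% in every library. FOSL1 was the largest share of the family by both measures, whereas the FOS share depended on its effective length. FOSB made up at most 1.88%.

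JUN, the founding JUN family subunit and a potent partner of FOS proteins, was at 8.37, 9.23 and 8.85 TPM in E. It was at 5.60, 11.5 and 38.7 TPM in EM1, at 8.73, 3.37 and 21.3 in EM2 and at 8.96, 5.04 and 28.9 in EM3. The M1 libraries stood at 9.72, 25.7 and 31.2 TPM, those of M2 at 33.8, 25.9 and 42.0 and those of Parental at 8.20, 1.77 and 3.61. Every M2 library lay above every library of E, EM2 and Parental, and the 3 libraries of E ran from 8.37 to 9.23 TPM. E and Parental were the only neighbours in the order of line means whose libraries did not overlap. For JUN 6 of the 21 pairs of lines did not overlap in TPM, against 35.8% over all genes and pairs.

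JUNB, a JUN family member with weaker activating capacity than JUN, was at 128, 132 and 123 TPM in E. It was at 49.5, 69.1 and 213 TPM in EM1, at 85.7, 68.9 and 176 in EM2 and at 69.0, 73.0 and 183 in EM3. In M1 it was at 47.5, 71.1 and 92.7 TPM, in M2 at 21.6, 37.7 and 33.9, and in Parental at 62.3, 32.4 and 115. E lay above M1, M2 and Parental in every library, and M2 below every other clone. These were all 7 JUNB pairs of 21 without overlap in TPM, against 35.8% over all genes and pairs. JUND, the more evenly expressed member of the family, had line means from 20 ± 5.06 TPM in EM2 to 56.9 ± 29.2 in EM1 (SD, n = 3), with 32.1 ± 1.35 in E, 29.9 ± 14.6 in M1 and 38.0 ± 5.07 in M2.

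The makeup of JUN family messenger RNA differed between the clones. In E, JUN, JUNB and JUND made up 5.22 ± 0.238, 75.8 ± 0.36 and 19 ± 0.17% of the summed TPM (SD, n = 3). In M2 the shares were 33.0 ± 7.52, 29.9 ± 6.5 and 37.1 ± 6.27%. JUNB was the largest share in all 18 libraries outside M2 and JUN stayed at or below 21.4% there, whereas in M2 it was 24.5% or more. M1 lay between, with 17.4 ± 4.5% JUN and 58.4 ± 3.65% JUNB. The EM clones had 7.09 to 8.92% JUN as line means. These shares are described without a test.

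**Figure D2:**
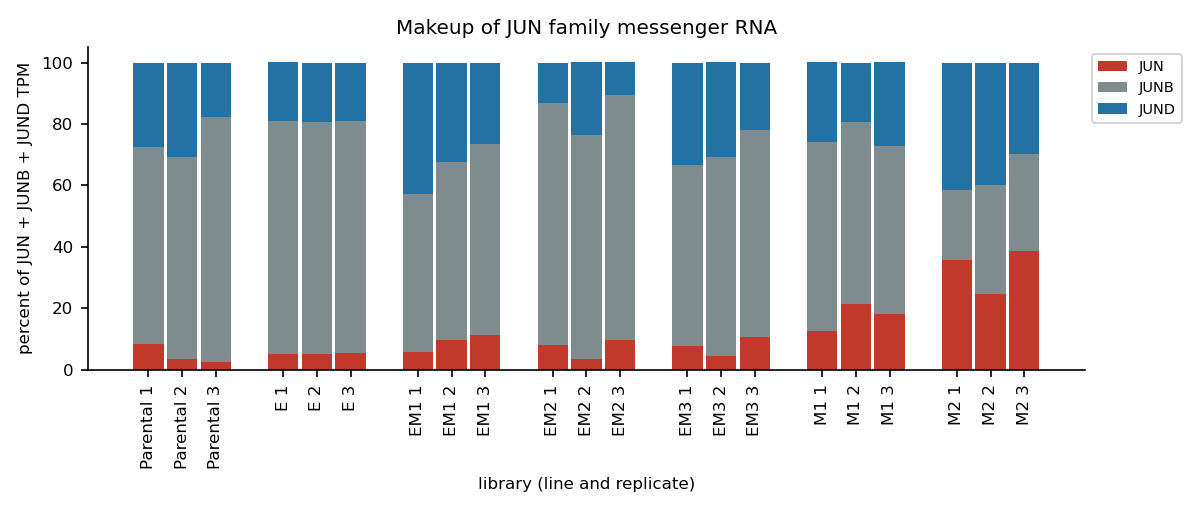
Stacked bars give the percent of summed TPM held by JUN, JUNB and JUND in each of the 21 libraries, labelled by line and replicate. JUN takes 24.5 to 38.8% in the M2 libraries and at most 21.4% in every other library.

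EGR1, a zinc finger factor and classical SRF target, was at 9.62, 10.5 and 9.56 TPM in E. It was at 13.9, 9.96 and 33.1 TPM in EM1, at 6.29, 4.10 and 13.9 in EM2 and at 5.83, 10.4 and 18.6 in EM3. M1 had 4.72, 8.33 and 15.6 TPM, M2 had 9.05, 20.5 and 3.57, and Parental had 10.6, 3.19 and 21.8. No pair of the 7 lines was free of overlap for EGR1, so the order of its line means says nothing beyond their spread.

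ATF3, a stress-induced factor that can dimerize with JUN proteins, was at 7.92, 8.80 and 10.2 TPM in E. It was at 2.43, 4.72 and 22.5 TPM in EM1, at 1.45, 1.19 and 7.44 in EM2 and at 4.63, 5.78 and 15.4 in EM3. The M1 libraries stood at 3.67, 8.77 and 12.4 TPM, those of M2 at 3.15, 21.4 and 2.48 and those of Parental at 2.04, 1.26 and 4.53. In M2 replicate 2 was the high library for ATF3 and for EGR1 alike, whereas in EM1, EM2, EM3 and M1 it was replicate 3 for both.

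MYC was at 208, 237 and 253 TPM in E. It was at 154, 162 and 391 TPM in EM1, at 121, 91.3 and 210 in EM2 and at 155, 145 and 366 in EM3. M1 had 72.2, 74.8 and 146 TPM, M2 had 198, 568 and 470, and Parental had 146, 111 and 142. M1 lay below E, EM1 and M2 in every library, and neighbours in the order of the 7 means overlapped. For MYC 6 of the 21 pairs did not overlap in TPM, against 35.8% over all genes and pairs.

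**Figure D3:**
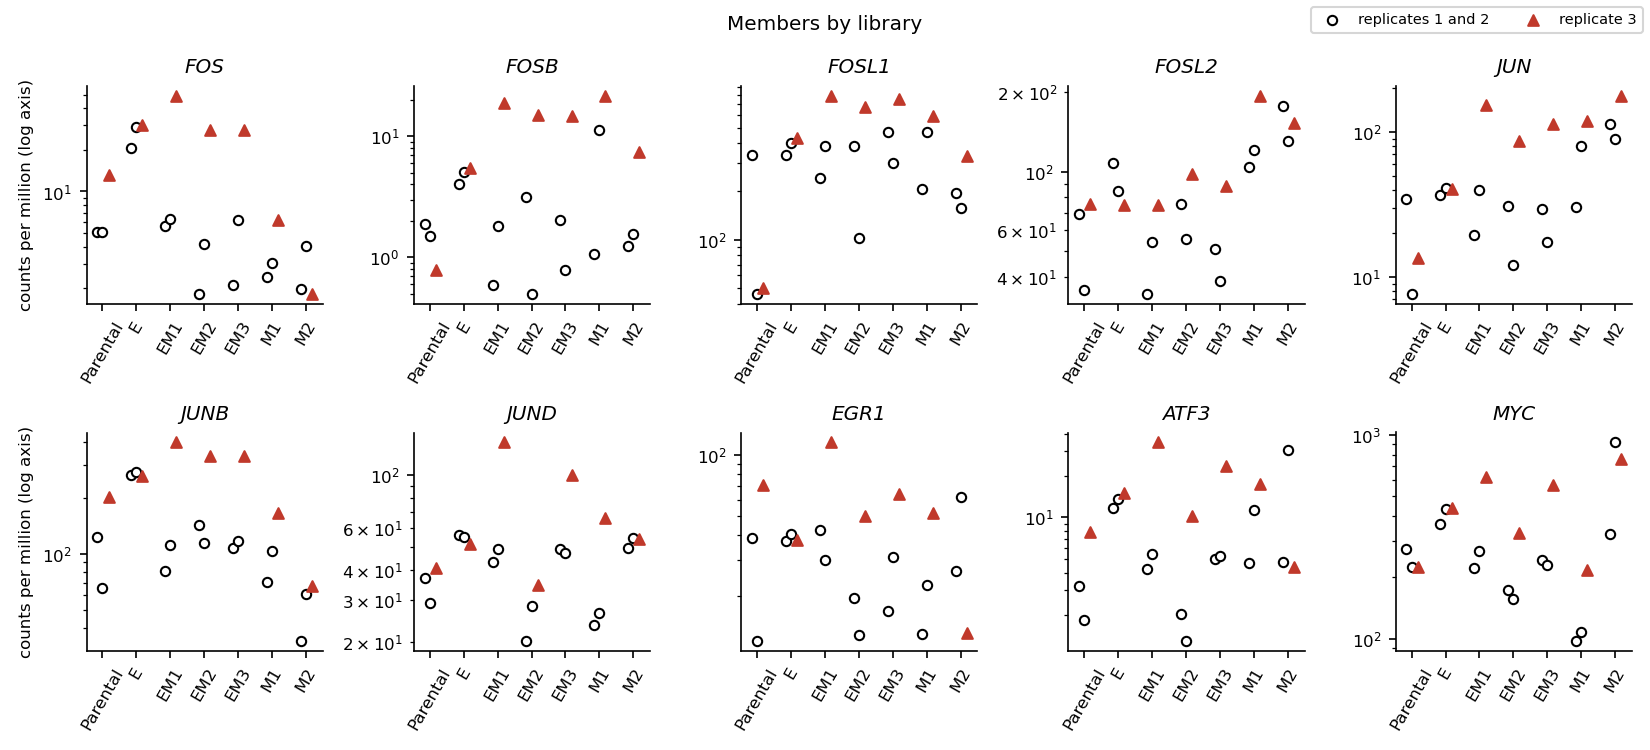
CPM (log axis) of the 10 genes in every library, by line, with open circles for replicates 1 and 2 and red triangles for replicate 3. In EM1, EM2, EM3 and M1 the triangle is the highest point for all 10 genes, and in E the 3 points lie close together.

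Replicate 3 was then compared with replicates 1 and 2 in the 15 libraries of EM1, EM2, EM3, M1 and M2, with the line as a term. All 10 genes were called higher in replicate 3 by edgeR's quasi-likelihood test at an adjusted p under 0.05. Over all 18067 genes tested, 22.1% were called higher. The median of the 10 log2 differences was 1.28, against 0.04 over all genes. This comparison describes a set of libraries that the labels do not name, and depth, mitochondrial share and effective length moved with it, as given above. Their part in the result was not tested, and the genes were chosen with earlier results of these libraries known.

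Among the FOS family, FOSB differed most, by a log2 difference of 2.99 ± 0.54 (SE, edgeR adjusted p = 0.0011), followed by FOS with 2.24 ± 0.47 (adjusted p = 0.00266). FOSL1 was higher by 1.15 ± 0.29 (adjusted p = 0.00763) and FOSL2 by 0.68 ± 0.16 (adjusted p = 0.00421). With all 7 lines in the fit the FOSL1 call was lost, with 0.72 (edgeR adjusted p = 0.211). Within this family FOS and FOSB, known for brief responses, had larger differences than the later responding FOSL1 and FOSL2. Of the immediate-early genes outside it, JUN (1.80) and ATF3 (1.77) also lay above FOSL1 (1.15). JUNB (1.37) and EGR1 (1.18) lay nearer to FOSL1. These sizes were not compared by a test. In the JUN family, JUN was higher by 1.80 ± 0.33, JUNB by 1.37 ± 0.20 and JUND by 1.01 ± 0.16 (edgeR adjusted p = 0.00114, 0.00023 and 0.000408). MYC was higher by 1.07 ± 0.19 (edgeR adjusted p = 0.000838), ATF3 by 1.77 ± 0.59 (0.0282) and EGR1 by 1.18 ± 0.40 (0.0321). The EGR1 call was lost when any of 9 of the 15 libraries was left out (EM1 replicates 1, 2 and 3, EM2 2 and 3, EM3 1 and 3, M1 1 and 3), with an edgeR adjusted p of up to 0.115. That of ATF3 was lost without any of 8 (all of EM1 and EM3, EM2 2 and 3), with an edgeR adjusted p of up to 0.125. Tests on log2(TPM + 1) with limma called 5 of the 10 higher, FOSB, JUN, JUNB, JUND and MYC, against 9.39% of genes. For FOS that test gave 2.36 (limma adjusted p = 0.075), in the unit that its effective length distorts.

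The difference was not alike in every line. By CPM, replicate 3 was the highest of its line for all 10 genes in each of EM1, EM2, EM3 and M1, which held for 16.7% of 18067 genes. In M2 this held for 4 of 10, FOSB, FOSL1, JUN and JUNB, against 33.9% of genes. In M2 the log2 ratio of replicate 3 to the mean of replicates 1 and 2 was 2.39 for FOSB. It was -1.98 for ATF3, -1.75 for EGR1 and -0.73 for FOS. In M2 replicates 1 to 3, ATF3 was at 4.76, 30.4 and 4.44 CPM. EGR1 was at 26.6, 61.9 and 13.1 CPM and FOS at 1.98, 4.07 and 1.82. All of these were highest in replicate 2, and for ATF3 and FOS replicates 1 and 3 were close. In E the 10 ratios ran from -0.37 to 0.29 with a median of 0.09, and in Parental from -1.95 for FOSL1 to 1.64 for ATF3. The medians in EM1, EM2, EM3 and M1 were 1.85, 1.55, 1.5 and 1.1.

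**Figure D4:**
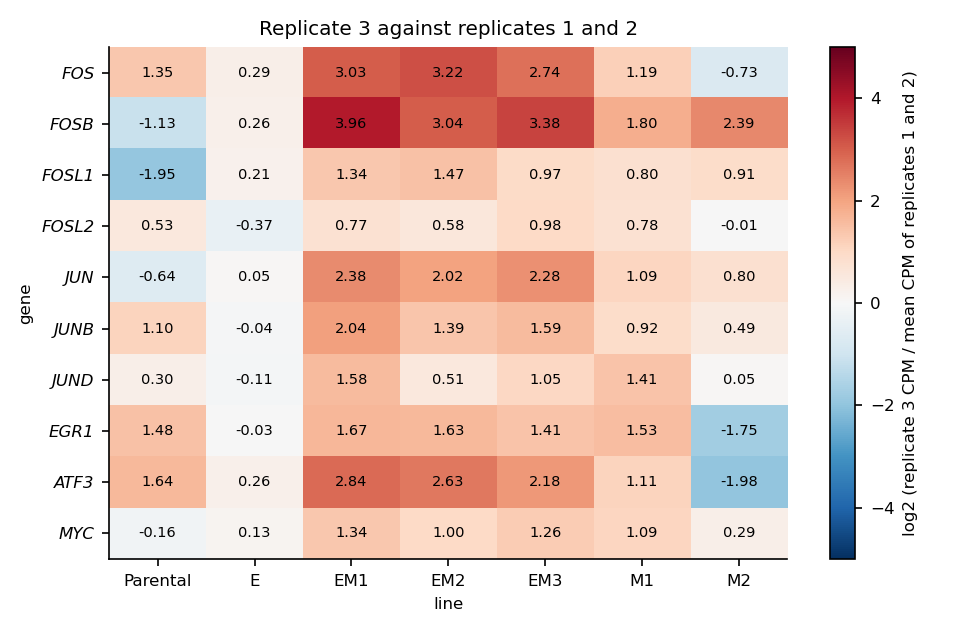
Each cell gives the log2 ratio of the CPM in replicate 3 to the mean CPM of replicates 1 and 2 for 1 gene (rows) in 1 line (columns), red where replicate 3 is higher and blue where it is lower. EM1, EM2, EM3 and M1 are positive for all 10 genes (0.51 to 3.96), E lies between -0.37 and 0.29, and M2 and Parental hold both signs.

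A fit with a separate replicate 3 term for EM1, EM2, EM3 and M1 together, and for M2, E and Parental, was added after these values were seen. The 4 clones were put together because replicate 3 was high in them, so their own term restates that choice and no calls are given for it. Over all 5 clones, replicate 3 was the highest of its line in each for 4 of 10 members, FOSB, FOSL1, JUN and JUNB, against 10.7% of genes. M2 differed from the 4 clones by -3.29 ± 0.86 for FOS, -3.24 ± 0.81 for EGR1 and -4.12 ± 1.10 for ATF3, with edgeR adjusted p = 0.0932, 0.0845 and 0.0976. In that comparison 0 of 10 members were called by edgeR or limma-voom, 4 had an unadjusted p under 0.05 by either, and 0.585% of genes were called by edgeR. E differed from the 4 clones with 0 calls by edgeR or limma-voom, over members and over all genes alike (0%), and with 6 members at an unadjusted p under 0.05 by edgeR and 9 by limma-voom. For Parental the MYC value was -1.59 ± 0.47 relative to the 4 clones, with an edgeR adjusted p of 0.0464, against 3.16% of genes called lower. Parental replicate 3 had a mean effective length of 1881 bases, the longest of its line, and shares only a number with replicate 3 of the clones. Each of M2, E and Parental gives 1 replicate 3 library against 2 others, and the group they are set against was chosen on these values.

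Other genes of the same kind were also higher in replicate 3 of the 5 clones. Of 28 other immediate-early genes, 17 were called higher and 0 lower by edgeR, with a median log2 difference of 0.91, where 22.1% of all genes were called higher and 21.3% lower. EGR4 was at 1.77 ± 1.86 TPM in replicate 3 (SD, n = 5) and 0.068 ± 0.0856 in the others (n = 10), and NR4A1, an orphan nuclear receptor, at 33.5 ± 18.8 and 4.85 ± 2.71. Their log2 differences were 4.59 ± 0.70 and 3.01 ± 0.51 (edgeR adjusted p = 0.000353 and 0.000784). SRF, which binds the CArG boxes shown above, was at 30.6 ± 4.14 and 17 ± 4.2 TPM, a log2 difference of 1.13 ± 0.18 (edgeR adjusted p = 0.000383). Of 16 feedback inhibitors of ERK signalling 6 were higher and 1 lower, against the same 22.1 and 21.3% of genes, among them DUSP4, a phosphatase of ERK, with 1.41 ± 0.17, and SPRY4 with 1.54 ± 0.28 higher (edgeR adjusted p = 6.46e-05 and 0.001). SPRED1, another ERK route inhibitor, was lower by 0.82 ± 0.15, with a log2 difference of -0.82 (edgeR adjusted p = 0.000768).

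Of 19 genes of the MAPK route, the kinases and factors that carry signals to these genes, 5 were called higher and 5 lower by edgeR, with a median of -0.06, near the shares of all genes (22.1% higher and 21.3% lower). ELK1, a partner of SRF, was higher by 0.63 ± 0.11 and the p38 kinase MAPK14 lower, with a log2 difference of -0.58 ± 0.13 (edgeR adjusted p = 0.000637 and 0.00277). Of 19 AP-1 target genes tested out of 22 listed, 7 were higher and 0 lower, with PLAUR, the urokinase receptor, higher by 1.57 ± 0.23 and TIMP1, a metalloproteinase inhibitor, by 1.43 ± 0.18 (edgeR adjusted p = 0.000218 and 9.05e-05). Other basic leucine zipper partners had 6 of 22 higher and 3 lower, MYC partners and antagonists 5 of 11 tested higher and 0 lower, and MYC target genes 7 of 18 higher and 1 lower. Of integrated stress response genes, the route through which ATF3 is induced by unfolded protein and amino acid lack, 3 of 14 were higher and 0 lower. Heat shock genes, which also mark handling of cells, had 2 of 11 higher and 0 lower, with a median of 0.42. The counts of higher members among the leucine zipper partners, the stress response genes and the heat shock genes are near the 22.1% over all genes, and nothing is read from them.

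Clones were next compared by line, with all 21 libraries in 1 fit. The comparisons with E share its 3 libraries, and E lies wholly in the set with short effective length. Each comparison between clones is therefore given with and without the set as a term. Fits with the term left out Parental and tested 18491 genes, so E against Parental was run without it only. Outside E that term is the difference of replicate 3 from replicates 1 and 2, so a fit with it sets E beside the level fitted for replicate 3 of the other clones. In M1 against E, 2 of 10 members were called lower and 0 higher by edgeR, against 18.1% of genes called lower. MYC was at 97.6 ± 41.8 TPM in M1 and 233 ± 22.8 in E (SD, n = 3 each), a log2 fold change of -1.53 ± 0.48 (SE, edgeR adjusted p = 0.0193). FOS was at 3.89 ± 2.04 CPM in M1 and 26.6 ± 5.22 in E, a log2 fold change of -2.76 ± 1.02 (edgeR adjusted p = 0.0416). The FOS call was lost when E replicate 1, 2 or 3 or M1 replicate 1 or 2 was left out, with an edgeR adjusted p of up to 0.142. The MYC call was lost without M1 replicate 1 or 2 (edgeR adjusted p = 0.0942 and 0.0841), so no member was called without either.

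With the set as a term, M1 against E had 3 members higher and 1 lower (38.7% of genes called). FOSB was higher by 3.08 ± 0.87, JUN by 2.12 ± 0.53 and FOSL2 by 1.07 ± 0.26 (edgeR adjusted p = 0.0118, 0.00546 and 0.00386). MYC stayed lower, with -0.92 ± 0.30 (edgeR adjusted p = 0.0247). FOS was no longer called, with -1.33 (edgeR adjusted p = 0.175).

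In M2 against E, 2 members were called lower and 0 higher by edgeR, against 26.8% of genes called lower. JUNB was at 31.1 ± 8.39 TPM in M2 and 128 ± 4.51 in E, a log2 fold change of -2.34 ± 0.63 (edgeR adjusted p = 0.00438). FOS was at 2.63 ± 1.26 CPM in M2 and 26.6 ± 5.22 in E, a log2 fold change of -3.41 ± 1.06 (edgeR adjusted p = 0.0116). JUN, with 33.9 ± 8.04 TPM in M2 and 8.82 ± 0.431 in E, had a log2 fold change of 1.66 ± 0.86 that missed the threshold in counts (edgeR adjusted p = 0.114), although no library of the lines overlapped. It passed on log2(TPM + 1) with 1.81 (limma adjusted p = 0.0399).

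With the set as a term, M2 against E had 4 members higher and 1 lower (55.8% of genes called). JUN was higher by 2.86 ± 0.54, MYC by 1.39 ± 0.31 and FOSL2 by 1.24 ± 0.27 (edgeR adjusted p = 0.000434, 0.00123 and 0.00101). JUND turned from -0.08 ± 0.43 without the term to 0.64 ± 0.26 with it (edgeR adjusted p = 0.891 and 0.0432). The term is 1 value per gene shared by the clones, and M2 did not follow it for every gene. Its log2 ratio of replicate 3 to replicates 1 and 2 was 0.80 for JUN, 0.49 for JUNB and 0.29 for MYC. It was 0.05 for JUND, -0.01 for FOSL2 and -0.73 for FOS. JUND itself was at 49.6, 54.2 and 53.7 CPM in M2 and 55.9, 54.9 and 51.3 in E. JUNB stayed lower with -1.42 ± 0.32 (edgeR adjusted p = 0.00162), and FOS missed the threshold with -1.57 (edgeR adjusted p = 0.105). JUNB was thus called lower in M2 under both fits, whereas the FOS call was lost with the term. Even so, FOS in M2 replicate 3 was at 1.82 CPM, against 20.7 CPM in the lowest library of E. The JUN call was made with the term and also, without it, in a fit of M2 and E alone (1.65, edgeR adjusted p = 0.00266), so it depended on which libraries gave the spread as well.

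In M2 against M1, a comparison in which both lines have the same make-up of sets, 1 member was called higher by edgeR, against 19% of genes called higher. MYC was at 412 ± 191 TPM in M2 and 97.6 ± 41.8 in M1, a log2 fold change of 2.19 ± 0.50 (edgeR adjusted p = 0.00152), and the call held without each library in turn (adjusted p of up to 0.0111). With the set as a term MYC was higher by 2.31 ± 0.29 and JUND by 0.59 ± 0.23 (edgeR adjusted p = 6e-06 and 0.0402). JUNB and FOSB were then lower, with -1.04 ± 0.28 and -2.14 ± 0.80 (edgeR adjusted p = 0.00592 and 0.036), against 54% of genes called.

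**Figure D5:**
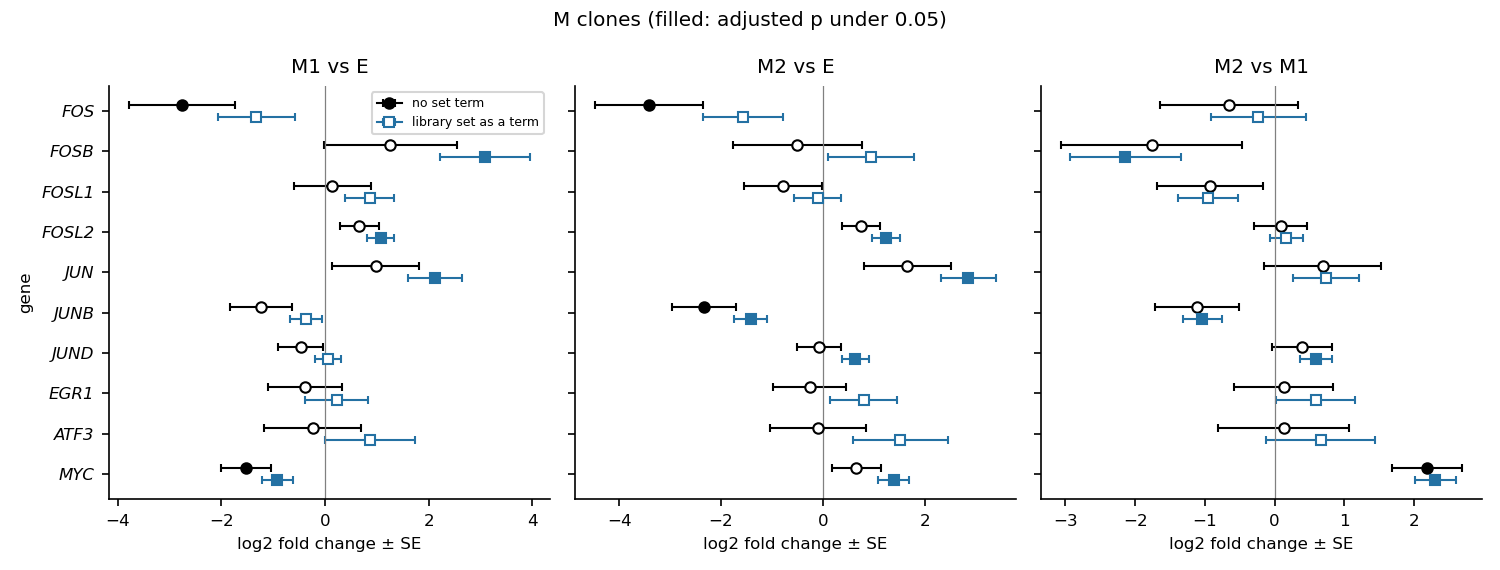
Log2 fold changes with SE of the 10 genes in M1 against E, M2 against E and M2 against M1, without (black circles) and with (blue squares) the library set as a term. Filled symbols passed an adjusted p of 0.05. MYC is filled under both fits in M1 against E and M2 against M1, JUNB under both in M2 against E, and FOS only without the term.

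The intermediate clones differed from E in no member by edgeR at an adjusted p under 0.05. In EM1, EM2 and EM3 against E, 0 of 10 were called, with 0, 1 and 0 at an unadjusted p under 0.05, and 17.9, 13.9 and 17.3% of genes were called. DESeq2 and limma-voom also called 0, with 1, 1 and 0 members at an unadjusted p under 0.05 by DESeq2 and 1, 4 and 1 by limma-voom. The spread within these clones was wide. FOSB was at 2.18 ± 2.86 TPM in EM1, 2.06 ± 2.28 in EM2 and 1.99 ± 2.27 in EM3 (SD, n = 3 each). FOS was at 20.3 ± 24.8, 11.2 ± 14.3 and 12 ± 13.8 CPM in the same order. The SE of FOSB (1.27 in each of the 3 comparisons) and FOS (0.95 to 0.97) rest on the spread over all 21 libraries. The values that lay lowest were ATF3 in EM2 at -1.56 ± 0.96 (edgeR adjusted p = 0.321) and FOS at -1.24 ± 0.97 in EM2 and -1.23 ± 0.96 in EM3 (edgeR adjusted p = 0.445 and 0.406). Without EM2 replicate 3, FOS was called lower in EM2, with -3.28 (edgeR adjusted p = 0.0446). With the set as a term, EM1 had JUN higher by 1.57 ± 0.50 and JUND by 0.95 ± 0.24 (edgeR adjusted p = 0.0427 and 0.0126), EM3 had JUND higher by 0.77 ± 0.25 (0.0381) and EM2 had 0 called, against 18.5, 20.2 and 18.4% of genes.

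E was set beside Parental as the clone against its uncloned source. No fit with the set as a term was run here. Mean effective length was 1751 to 1765 bases in E and 1825 to 1881 in Parental, so line and length cannot be told apart. By edgeR 0 of 10 members were called, with 0 at an unadjusted p under 0.05, against 10.9% of genes. DESeq2 and limma-voom called 0 as well, with 2 and 3 at an unadjusted p under 0.05. All 10 log2 fold changes were above 0, from 0.04 ± 0.71 for EGR1 to 1.91 ± 0.99 for FOS, with a median of 1.13 against -0.01 over all genes. A fit of these 6 libraries alone called 6 members higher in E, FOS, FOSB, JUNB, JUND, ATF3 and MYC, against 15.9% of genes. Without Parental replicate 1, whose FOSL1 was at 276 TPM, FOSL1 was called higher in E with 3.22 (edgeR adjusted p = 0.0159).

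Known targets of the members differed between the M clones. Of 18 MYC target genes, 11 were called higher in M2 than in M1 and 0 lower by edgeR, with a median log2 fold change of 0.78 against -0.02 over all genes, of which 19% were called higher. With the set as a term 13 were higher and 0 lower, where 54% of genes were called in either direction. ODC1, the first enzyme of polyamine synthesis, was at 431 ± 35.5 TPM in M2 and 136 ± 21.1 in M1 (SD, n = 3 each), a log2 fold change of 1.83 ± 0.53 (edgeR adjusted p = 0.00948). POLR1B, a subunit of RNA polymerase I, was at 77.4 ± 14.3 and 29.5 ± 1.67 TPM, a log2 fold change of 1.41 ± 0.18 (edgeR adjusted p = 4.22e-06). These 11 genes and MYC itself were thus higher in the same clone. In M1 against E, where MYC was called lower, 0 of the 18 were higher and 3 lower, against 18.1% of genes in each direction. In M2 against E, where MYC was called only with the term, 5 were higher and 1 lower, against 24.6 and 26.8%. The 3 lower and the 5 higher are near these shares, and nothing is read from them.

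AP-1 target genes went the other way between the M clones. Of 19 tested, 2 were higher and 11 lower in M2 than in M1 by edgeR. Their median was -2.80, and 22.2% of all genes were called lower. MMP13, a collagenase with a TPA response element in its promoter, was at 244 ± 53.4 TPM in M1 and listed at 0 in M2. IL6, an inflammatory cytokine, was at 292 ± 192 TPM in M1 and 6.16 ± 7.87 in M2, a log2 fold change of -5.89 ± 1.28 (edgeR adjusted p = 0.00113). In M1 against E 9 were higher and 3 lower (18.1% of genes in each direction), and in M2 against E 4 were higher and 7 lower (24.6 and 26.8% of genes). When the set was a term, 4 were higher and 12 lower in M2 against M1, 12 higher and 3 lower in M1 against E, and 6 higher and 7 lower in M2 against E. The median in M2 against E moved from -1.44 to -0.51 with the term. VIM, the intermediate filament of mesenchymal cells, was higher in both, at 2664 ± 468 TPM in M1 and 2102 ± 552 in M2 against 13.8 ± 1.54 in E. Its log2 fold changes were 7.15 ± 0.37 and 6.87 ± 0.37 (edgeR adjusted p = 2.08e-10 and 3.98e-11).

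Feedback inhibitors of ERK signalling differed between the clones in both directions. In M2 against E, 6 of 16 were higher and 3 lower by edgeR, against 24.6 and 26.8% of genes. When the set was a term, 9 were higher and 2 lower, where 55.8% of genes were called. DUSP1, a phosphatase of p38, JNK and ERK and itself an immediate-early gene, was at 99.6 ± 40 TPM in M2, 28.8 ± 7.63 in M1 and 4.70 ± 0.597 in E. Its log2 fold changes against E were 4.04 ± 0.56 in M2 and 2.23 ± 0.52 in M1 (edgeR adjusted p = 8.28e-06 and 0.00236). DUSP4 was at 4.07 ± 2.03 TPM in M2 and 51 ± 4.94 in E, a log2 fold change of -3.88 ± 0.67 (edgeR adjusted p = 9.68e-05). DUSP1 and DUSP4 thus differed from E in opposite directions in M2.

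Within lines the 10 genes varied together, whereas without removal of the line means several pairs had correlations near 0. Over the 21 libraries as they stand, the Pearson correlation of log2 CPM ran from -0.07 (FOS with FOSL2) and -0.05 (FOSL2 with JUNB) to 0.87 among the 45 pairs, with 0.14 for JUN with JUNB and 0.15 for FOS with JUN. After the mean of each line was removed, the correlation ran from 0.38 (FOS with FOSL1) to 0.92 (FOSB with JUN), with a median of 0.76, and 41 pairs were over 0.5. EGR1 and ATF3, the pair that was low together in M2 replicate 3, reached 0.90. These correlations describe libraries that share the sets given above.

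Among genes outside the members with the most similar pattern of log2(TPM + 1) over the 21 libraries, SRF was nearest to FOSB, with a Pearson correlation of 0.91 (0.94 by CPM). JUN was nearest to DUSP5 (0.92), an ERK phosphatase, with SPRY4 at 0.91, JUNB to EML2 (0.93), JUND to ABL2 (0.90) and FOSL1 to STK10 (0.86). FOSL2 was nearest to GOSR2 (0.92) and HERPUD1 (0.90), ATF3 to DLGAP1-AS2 (0.89) and MYC to VPS28 (0.90). EGR1 had no gene above 0.76 (TGIF1). For FOS the value by CPM was 0.94 with PIM3, and no TPM value is given because of its length. Lines, sets and depth are shared by all these points, so the values are a description with no test.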

How the data were processed

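Poly(A) RNA was extracted with an RNeasy Plus kit, per the labels' protocols. Per the submitters' processing notes, bcl2fastq 2.20.0.422, cutadapt 2.4, STAR 2.7.2b and RSEM 1.3.2 were used with hg38. Annotation and strand setting are not given in the sources used here. Per the file headers, each deposited table holds expected counts, TPM and effective length per gene. The expected count is the authors' RSEM estimate, and 7.4 to 8.6% of values were not whole. The deposited TPM divides counts by effective length, and the unit other in the tables is that length in bases.

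Expected counts were rounded and tested with edgeR 4.0.16 in R 4.3.3 (robust quasi-likelihood F-test, TMM, filterByExpr, BH-adjusted p under 0.05 over all genes tested). The filter kept 18632 genes in the fit of 21 libraries (14 residual degrees of freedom, biological coefficient of variation 0.34) and 18067 in the replicate 3 fit (9 degrees of freedom, 0.27), including all 10 members in both. SE is the absolute log2 fold change over the square root of F. CPM divides by the library total. Levels used TPM or CPM with SD. Positions came from GENCODE 29. Alternatives were other filters, size factors, DESeq2 1.42.0, limma-voom and limma-trend (limma 3.58.1), the compared lines only, a replicate block, the library set as a term and each library left out. Separate replicate 3 terms, CPM levels, fixed lengths and CPM likeness were added after the data were seen. In simulated counts 67, 67 and 66 genes were changed 2-, 4- and 8-fold. For EM1 against E, simulated and fitted without the other lines (16459 genes), edgeR recovered 14.9, 79.1 and 89.4%. For replicate 3 (18067 genes) it recovered 31.3, 83.6 and 89.4%. Members and the 9 gene lists were chosen with earlier results of these data known. Of each list, up to 4 genes per comparison could be named: the largest called changes with groups that did not overlap and a mean CPM of at least 1. Likeness used genes whose TPM averaged 1 or more. Python 3.11.15, pandas 2.3.3, numpy 2.4.6 and matplotlib 3.10.9 were used. Some results are not reported here.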

Additional observations from a re-analysis of the deposited data

Results flagged for a closer look

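MYC in Parental stood apart from the 4 clones EM1, EM2, EM3 and M1 in the contrast of replicate 3 with replicates 1 and 2. That log2 difference was 1.22 ± 0.19 in the 4 clones, and the Parental difference minus that was -1.59 ± 0.47 (SE, edgeR adjusted p = 0.0464, limma-voom 0.0456; 3.16% of genes were called lower in this comparison by edgeR). In Parental MYC was at 276, 224 and 224 CPM, so its side of the comparison is 1 library against 2. The fit was added after the data were seen, and the 4 clones were grouped because their replicate 3 values were high, so the p-value is no independent support. Parental replicate 3, with a mean effective length of 1881 bases against 1825 and 1845 in replicates 1 and 2, is not in the set with short effective length and shares only a number with replicate 3 of the clones. Of the other 9 members none was called, although FOSB, FOSL1, JUN and JUND had an unadjusted p under 0.05 by edgeR.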

How the results depend on the processing

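All 10 members kept their higher level in replicate 3 in every alternative run, and at least 8 stayed called under each library left out (8 to 10); with all 7 lines 9 were called, without FOSL1 (0.72, edgeR adjusted p = 0.211), and the TPM tests called 5 with either pseudocount (1 or 0.1). Leaving out 1 library gave 0 to 1 members called in EM2 against E, 0 to 2 in M1 against E and 0 to 1 in E against Parental. Without a low-count filter, 2, 4 and 1 members were called in EM1, EM2 and EM3 against E and 5 in M1 against E. There were 5 in M2 against E, 5 in M2 against M1 and 8 in E against Parental. Of the 39460 genes then tested, 10.3, 8.12, 10, 17.9, 25.5, 20.2 and 8.75% were called, in the same order. With the compared lines only, 1 was called in EM2 against E, 3 in M1 against E, 4 in M2 against E and 6 in E against Parental, against 25.8, 51, 51.4 and 31.7% of genes. With the library set as a term, 2 and 1 were called in EM1 and EM3 against E and 4 in M1 against E. There were 5 in M2 against E and 4 in M2 against M1. The shares of genes called were 18.5, 20.2, 38.7, 55.8 and 54%, in the same order. JUND in M2 against E turned to 0.64, with the limit for M2 given above. The TPM tests called 1 in M1 against E with either pseudocount. Replicate numbers were not taken to pair the libraries, because no comparison had all 3 same-number correlations over 0.1. In M2 against M1 these were 0.25, 0.05 and 0.44 for replicates 1, 2 and 3. Every other comparison includes E or Parental, which lack the split of replicate 3. The check therefore cannot show whether the replicate 3 libraries of the clones belong together. The replicate block called 2 members in EM2 against E, 1 in EM3 against E, 3 in M1 against E, 2 in M2 against M1 and 2 in E against Parental, against 18.8, 24.4, 42.5, 46.2 and 19.9% of genes. The third member in M1 against E was JUNB, with -1.25 and -1.40 in these 2 fits (edgeR adjusted p = 0.009 and 0.00856). The cause of these changes was not tested. In counts simulated for EM1 and E, with 3 libraries per line, 2-fold changes were mostly missed (14.9% recovered by edgeR). That simulation was fitted without the other lines, whereas the reported comparison takes its spread from all 21 libraries. The share that the reported fit would recover was not tested.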

Other observations

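Some other basic leucine zipper partners of the JUN and FOS proteins differed between the clones. CREB5 was at 11.9 ± 6.26 TPM in M2 and 1.37 ± 0.734 in M1, a log2 fold change of 3.73 ± 0.82 (edgeR adjusted p = 0.00123). JDP2, which dimerizes with JUN and represses AP-1, was higher than in E in both M clones, by 1.43 ± 0.40 in M1 and 2.84 ± 0.41 in M2 (edgeR adjusted p = 0.00861 and 1.63e-05). In M2 against M1, 6 of the 22 partners were called higher and 7 lower by edgeR, against 19 and 22.2% of genes, and in M2 against E 7 were higher and 3 lower, against 24.6 and 26.8%. When the library set was a term, they were 6 and 7 in the first comparison and 6 and 4 in the other. Nothing particular to the list is read from them.

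Among other immediate-early genes, PTGS2, the inducible cyclooxygenase, was at 77.2 ± 39.7 TPM in M1, 12 ± 0.419 in E and 0.423 ± 0.604 in M2. Its log2 fold change in M2 against M1 was -7.28 ± 0.94 (edgeR adjusted p = 4.81e-06). KLF2 was at 7.14 ± 3.94 TPM in M2 and 0.343 ± 0.201 in E, a log2 fold change of 4.48 ± 0.63 (edgeR adjusted p = 1.03e-05), and EGR3 was at 0.203 ± 0.0416 in M2 and 4.41 ± 0.176 in E, with -5.10 ± 1.73 (edgeR adjusted p = 0.0198). Of the 28 genes, 7 were higher and 6 lower in M2 against E by edgeR, against 24.6 and 26.8% of genes. In M1 against E 6 were higher and 3 lower, against 18.1% in each direction, so both counts of higher genes are near the shares over all genes. When the library set was a term, 10 were higher and 2 lower in M2 against E, and 10 and 3 in M1 against E.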
